A study of Saccharomyces cerevisiae with 16 samples.

Results

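Calcineurin, calmodulin and the proteins that act on them or answer to them were followed in budding yeast through 9 genes, chosen by systematic name from 6174 features on the array: CNA1 (YLR433C), CMP2 (YML057W), CNB1 (YKL190W), CMD1 (YBR109C), RCN1 (YKL159C), RCN2 (YOR220W), CRZ1 (YNL027W), CMK1 (YFR014C) and CMK2 (YOL016C). All 9 were on the array under these names. Each of 16 arrays with 2 dyes carried RNA of a culture treated with 20 mM KOH, which makes the medium alkaline, beside RNA of a culture of that strain treated equally long with 20 mM KCl. The cells were the msn2 msn4 mutant MCY5278 (msn2::kanMX4 msn4::hphMX4) at 10 min, wild type W303-1A at 10 min, the mutant at 30 min and wild type at 30 min, with 4 arrays per group. All were grown in rich medium (YPD) at 28 °C, and the mutant's labels also give W303-1A as its strain, so each genotype is 1 strain. The design text states 2 biological replicates per condition with dye swaps, and the labels do not say which arrays share an extract, so p-values over 4 arrays are too small.

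Calcineurin is a protein phosphatase that is switched on by calcium and calmodulin. In yeast its catalytic subunit is Cna1 or Cmp2, and each pairs with the regulatory subunit Cnb1. The active enzyme dephosphorylates the transcription factor Crz1, which then enters the nucleus and turns on genes of ion transport and the cell wall. Rcn1 and Rcn2 are regulators of calcineurin, Cmk1 and Cmk2 are protein kinases that need calcium-bound calmodulin, and a shift to alkaline medium is known to bring calcium into yeast cells. Msn2 and Msn4, which the mutant lacks, are transcription factors of the general stress response.

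Every value below is a log2 ratio, KOH over KCl, on arrays centred on their own medians; that the base is 2 and that KOH is on top is likely but was not stated. RNA came from whole cultures, so a change in all cells and a change in some of them cannot be told apart. Between 2073 and 5443 features had a value on an array, and arrays of a group correlated at r = 0.542 to 0.865 across features, which are not independent. At 30 min arrays 1 and 2, and arrays 3 and 4, which have opposite dyes, stood apart as pairs: r was 0.865 and 0.857 within these pairs in the mutant, against 0.542 to 0.643 across them, and 0.865 and 0.782 within them in wild type, against 0.626 to 0.730 across. At 10 min r within these pairs was 0.842 and 0.808 in the mutant, against 0.759 to 0.848 across, and 0.750 and 0.793 in wild type, against 0.707 to 0.745. This is a hint from the data on which arrays share an extract, and no label states it. Of the 9 genes, 7 had a value on all 16 arrays, RCN2 on 15 and CRZ1 on 2. Array 4 of each group has a title number from another series than the other 12 arrays, and carried KOH RNA in Cy3. Each ratio sets a strain against itself, so levels cannot be compared between strains: MSN2 had a value on 8 of 8 mutant arrays and MSN4 on 5 of 8, and what their probes measured there is not known. Of the mating type markers, 1 passed the test, STE6 in wild type at 30 min (-0.79 ± 0.16, adjusted p = 0.00344). In that group 3 of 4 MATa and 1 of 3 MATalpha markers were tested, and 38% of all tested features passed. STE6 could be tested in that group alone.

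Under alkali the RNAs of CMK2, RCN2 and RCN1 rose in both strains and at both times, and CMP2 and CMK1 rose less but also in all 4 groups. CNA1 fell at 30 min in both strains, while CNB1 rose in the mutant at 10 min and in wild type at 30 min, and CMD1 in wild type at 30 min. A gene was called where its limma test had a Benjamini-Hochberg adjusted p below 0.05 over all features tested. Of 8 tested genes 6 rose and 0 fell in the mutant at 10 min, where 36.5% of all tested features were called (18.6% higher and 17.9% lower). In wild type at 10 min 5 rose and 1 fell, where 42.7% of all features were called (21.8% higher and 20.9% lower). In the mutant at 30 min 5 rose and 1 fell, where 41.1% were called (22% higher and 19.1% lower). In wild type at 30 min 7 rose and 1 fell, where 38% were called (19.2% higher and 18.8% lower). The median of the 8 log2 values was 0.87, 1.01, 0.81 and 0.90 in that order of groups, beside medians over all tested features of 0.0095, -0.039, 0.020 and 0.017. The figure after ± is the standard error from limma unless SD is named, and n is 4 arrays per group unless given.

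**Figure D1:**
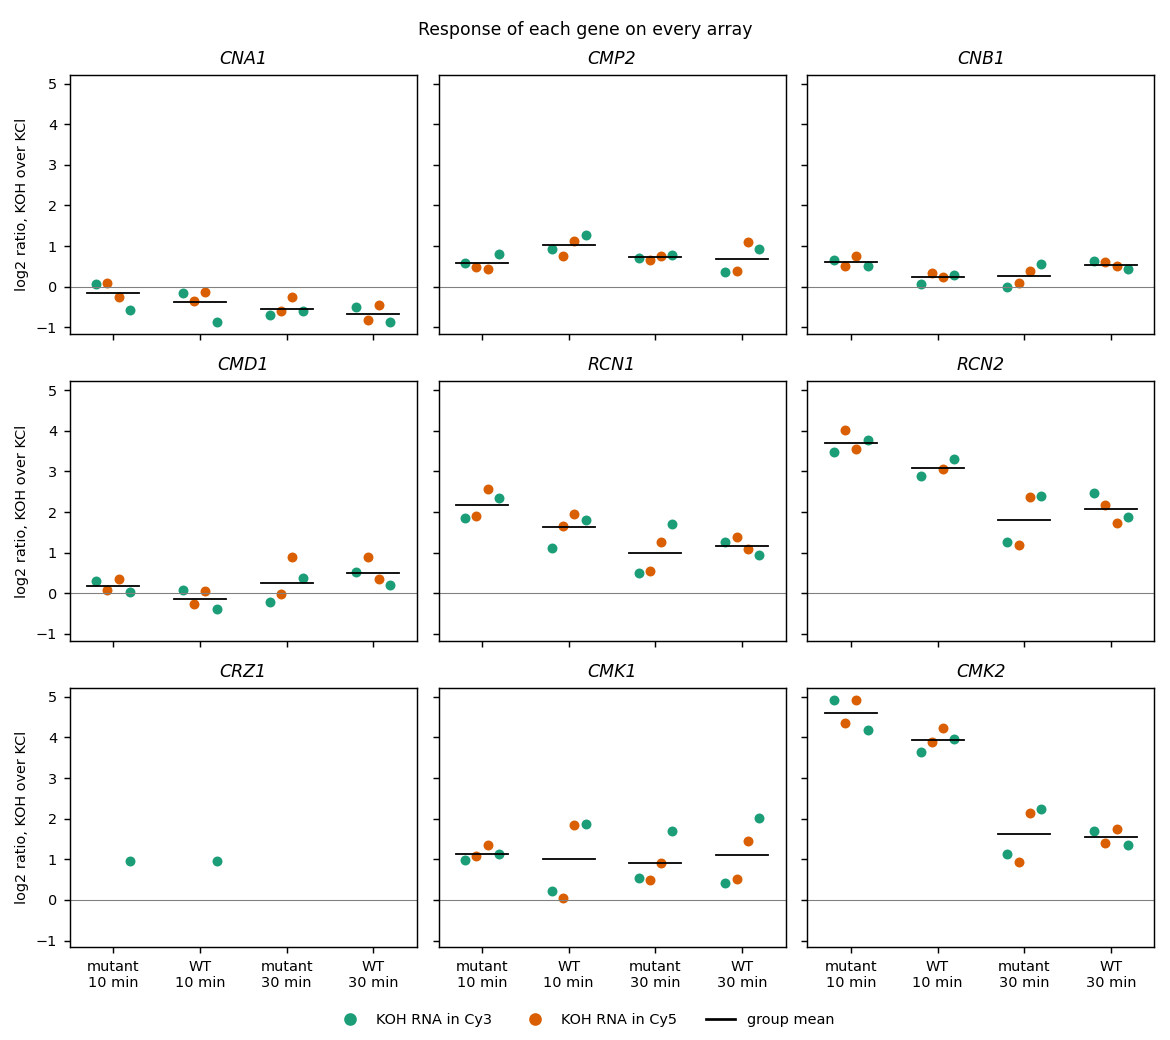
Log2 ratio of KOH over KCl (vertical axis) of each of the 9 genes on every array, by group, with green points for KOH RNA in Cy3, orange points for KOH RNA in Cy5, and a black line at the group mean. CMK2, RCN2 and RCN1 lie above 0 on every array, while CMK1 divides into low and high arrays in wild type.

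The catalytic subunit genes of calcineurin did not respond alike. CMP2 stood at 0.59, 0.48, 0.44 and 0.80 on the mutant arrays at 10 min, against 0.93, 0.74, 1.12 and 1.28 in wild type at 10 min. Its values at 30 min were 0.70, 0.65, 0.76 and 0.77 in the mutant, against 0.36, 0.39, 1.09 and 0.93 in wild type. CMP2 was thus above 0 on all 16 arrays, and at 10 min only mutant array 4 reached the lower wild type values. It rose by 0.58 ± 0.13 in the mutant (adjusted p = 0.00243) and by 1.02 ± 0.13 in wild type (adjusted p = 8.47e-06) at 10 min, or 1.49-fold and 2.02-fold. The rise at 30 min was 0.72 ± 0.13 in the mutant (adjusted p = 0.00052) and 0.69 ± 0.13 in wild type (adjusted p = 0.000611).

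CNA1, the other catalytic subunit gene, stood at 0.079, 0.094, -0.26 and -0.57 in the mutant at 10 min, against -0.17, -0.35, -0.14 and -0.87 in wild type. At 30 min its values were -0.69, -0.61, -0.26 and -0.61 in the mutant, against -0.50, -0.82, -0.45 and -0.88 in wild type. All 8 arrays at 30 min lay below 0, and the strains overlapped. CNA1 fell by 0.54 with an error of 0.14 in the mutant (adjusted p = 0.00671) and by 0.66 with an error of 0.14 in wild type (adjusted p = 0.00141) at 30 min. At 10 min the value was -0.16 ± 0.14 in the mutant (adjusted p = 0.376) and -0.38 ± 0.14 in wild type (adjusted p = 0.0354). The call in wild type at 10 min was lost without array 2 (-0.36, adjusted p = 0.0911), array 3 (-0.44, adjusted p = 0.0511) or array 4 (-0.23, adjusted p = 0.255), and over all 16 alternatives the adjusted p ran from 0.00703 to 0.298.

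Within each array CMP2 lay above CNA1 on 16 of 16 arrays, by 0.38 to 2.15 on the log2 scale. The mean difference was 0.74 ± 0.44 in the mutant and 1.40 ± 0.51 in wild type at 10 min (SD, n = 4 each). It was 1.26 ± 0.17 in the mutant and 1.36 ± 0.41 in wild type at 30 min (SD, n = 4 each). These are differences between responses and say nothing of which subunit's RNA was more abundant.

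**Figure D2:**
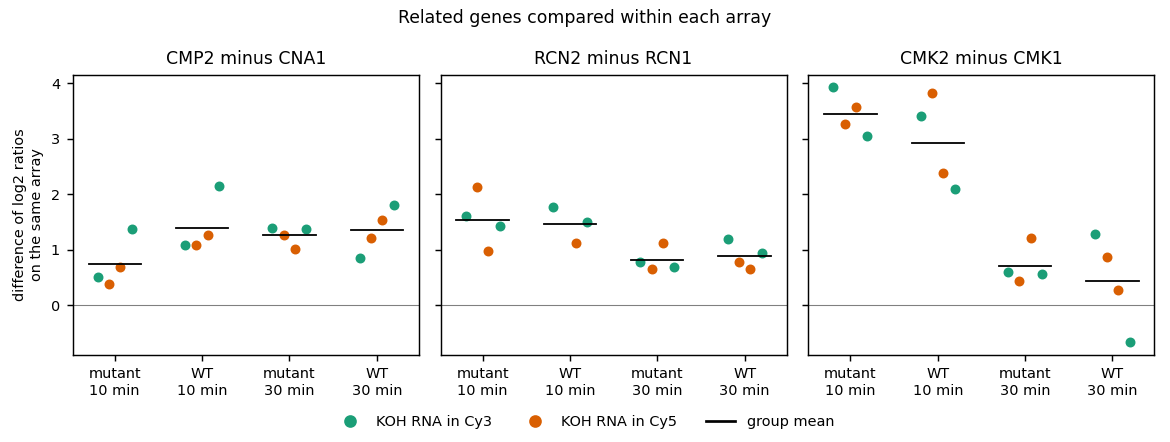
Difference between the log2 ratios of related genes on the same array (vertical axis), by group, with points coloured by the dye of the KOH RNA and a black line at the group mean. CMP2 lies above CNA1 on all 16 arrays and RCN2 above RCN1 on all 15 that measured both, whereas the gap between CMK2 and CMK1 is smaller at 30 min than at 10 min.

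CNB1 encodes the regulatory subunit that both catalytic subunits need. Its values were 0.65, 0.51, 0.75 and 0.51 in the mutant at 10 min, against 0.058, 0.35, 0.25 and 0.28 in wild type, and these groups did not overlap. The share of all features without overlap between the strains was not computed. The CNB1 difference between the strains at 10 min did not pass limma's test (adjusted p = 0.416). At 30 min the values were -0.0020, 0.092, 0.40 and 0.57 in the mutant, against 0.63, 0.60, 0.51 and 0.43 in wild type, which overlapped. CNB1 rose by 0.60 ± 0.11 in the mutant at 10 min (adjusted p = 0.000449), with 0.23 ± 0.11 in wild type (adjusted p = 0.106). CNB1 at 30 min stood at 0.26 ± 0.11 in the mutant (adjusted p = 0.0729), against a rise of 0.54 ± 0.12 in wild type (adjusted p = 0.00136). Without array 1 of the mutant at 30 min the value there was 0.35 (adjusted p = 0.0452), and centring on the features present on all 16 arrays gave 0.34 in wild type at 10 min (adjusted p = 0.00747).

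CMD1, the calmodulin gene, had the smallest responses of the 8 tested genes in wild type at both times and in the mutant at 30 min. It stood at 0.29, 0.085, 0.35 and 0.042 in the mutant at 10 min, against 0.077, -0.27, 0.060 and -0.39 in wild type. Its values at 30 min were -0.21, -0.0055, 0.90 and 0.37 in the mutant, against 0.53, 0.89, 0.35 and 0.21 in wild type. The mutant arrays at 30 min thus lay on both sides of 0, while the wild type arrays were all above it. CMD1 rose by 0.49 ± 0.16 in wild type at 30 min (adjusted p = 0.0197), a call lost without array 1 (0.45, adjusted p = 0.085) or array 2 (0.39, adjusted p = 0.114). It did not pass in the mutant at 10 min (0.19 ± 0.15, adjusted p = 0.347), in wild type at 10 min (-0.13 ± 0.15, adjusted p = 0.529) or in the mutant at 30 min (0.26 ± 0.16, adjusted p = 0.191).

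The regulators of calcineurin had larger log2 ratios than its subunits in all 4 groups. RCN2 stood at 3.47, 4.02, 3.55 and 3.76 in the mutant at 10 min, against 2.88, 3.06 and 3.31 on the 3 wild type arrays that measured it. RCN2 at 30 min stood at 1.27, 1.20, 2.38 and 2.40 in the mutant, against 2.46, 2.17, 1.74 and 1.89 in wild type. Every mutant array at 10 min lay above the 3 wild type arrays with a value. How many of all features separate the strains in this way was not computed, and the RCN2 difference did not pass limma's test (adjusted p = 0.468). At 30 min mutant arrays 1 and 2 lay below all 4 wild type arrays, while mutant arrays 3 and 4 lay among them. RCN2 rose 13-fold in the mutant (3.70 ± 0.20, adjusted p = 5.14e-10) and 8.44-fold in wild type (3.08 ± 0.23, adjusted p = 2.69e-08, n = 3) at 10 min. At 30 min the rise was 3.52-fold in the mutant (1.81 ± 0.20, adjusted p = 4.04e-06) and 4.18-fold in wild type (2.06 ± 0.20, adjusted p = 6.89e-07).

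RCN1 stood at 1.85, 1.90, 2.57 and 2.33 in the mutant at 10 min, against 1.11, 1.66, 1.94 and 1.81 in wild type. Its values at 30 min were 0.49, 0.55, 1.26 and 1.72 in the mutant, against 1.27, 1.39, 1.08 and 0.94 in wild type. The strains overlapped at both times, and mutant arrays 1 and 2 were the lowest at 30 min. RCN1 rose 4.48-fold in the mutant (2.16 ± 0.19, adjusted p = 1.47e-07) and 3.10-fold in wild type (1.63 ± 0.19, adjusted p = 2.6e-06) at 10 min. Its rise at 30 min was 2.01-fold in the mutant (1.00 ± 0.19, adjusted p = 0.000717) and 2.25-fold in wild type (1.17 ± 0.19, adjusted p = 0.00013). RCN2 lay above RCN1 on 15 of 15 arrays that measured both, by 0.65 to 2.13.

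CRZ1, the transcription factor that calcineurin activates, had a value on 2 arrays and could not be tested. It stood at 0.95 on array 4 of the mutant at 10 min and at 0.97 on array 4 of wild type at 10 min. None of the 8 arrays at 30 min held a value for it.

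**Figure D3:**
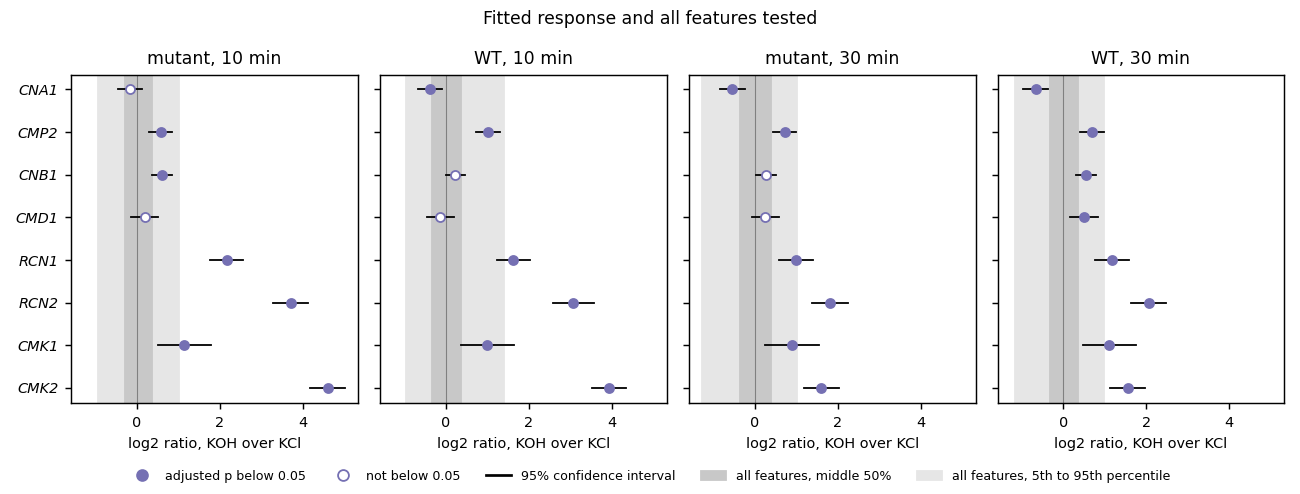
Fitted log2 ratio of KOH over KCl (horizontal axis) of the 8 tested genes in each group, with 95% confidence intervals as black lines and filled points where the adjusted p was below 0.05, over grey bands for the spread of all features tested. CMK2 and RCN2 lie to the right of the 95th percentile of all features in all 4 groups, and CNA1 lies left of 0 in each of them.

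The kinase genes CMK1 and CMK2 parted at 10 min. CMK2 stood at 4.92, 4.35, 4.93 and 4.18 in the mutant at 10 min, against 3.65, 3.88, 4.24 and 3.97 in wild type. Values at 30 min were 1.13, 0.94, 2.14 and 2.24 in the mutant, against 1.70, 1.39, 1.74 and 1.36 in wild type. All 8 arrays at 10 min lay above all 8 at 30 min. CMK2 rose 24.2-fold in the mutant (4.60 ± 0.20, adjusted p = 1.02e-11) and 15.3-fold in wild type (3.93 ± 0.20, adjusted p = 6.65e-11) at 10 min, which placed it 3 of 3042 and 7 of 2670 from the top among tested features. At 30 min it rose 3.05-fold in the mutant (1.61 ± 0.20, adjusted p = 1.09e-05) and 2.92-fold in wild type (1.55 ± 0.20, adjusted p = 1.15e-05).

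CMK1 stood at 0.99, 1.08, 1.36 and 1.13 in the mutant at 10 min, against 0.23, 0.057, 1.85 and 1.87 in wild type. At 30 min it stood at 0.53, 0.49, 0.92 and 1.69 in the mutant, against 0.42, 0.52, 1.45 and 2.02 in wild type. In wild type arrays 1 and 2 were low and arrays 3 and 4 high at both times, and each of these pairs holds both dyes. In the mutant at 10 min the 4 arrays lay close together. CMK1 rose by 1.14 ± 0.30 in the mutant (adjusted p = 0.00713) and by 1.00 ± 0.30 in wild type (adjusted p = 0.0127) at 10 min. CMK1 rose at 30 min by 0.91 ± 0.31 in the mutant (adjusted p = 0.0282) and by 1.10 ± 0.30 in wild type (adjusted p = 0.00884).

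Several of these CMK1 calls rested on the high arrays. In the mutant at 30 min the value was 0.88 without array 3 (adjusted p = 0.0786) and 0.65 without array 4 (adjusted p = 0.148). In wild type at 10 min it was 0.67 without array 3 (adjusted p = 0.124) and 0.71 without array 4 (adjusted p = 0.12). In wild type at 30 min it was 0.95 without array 3 (adjusted p = 0.0555) and 0.80 without array 4 (adjusted p = 0.0838). With the 12 arrays of the larger title series alone, which leaves out array 4 of every group, CMK1 stood at 0.58 in the mutant at 30 min (adjusted p = 0.143), at 0.64 in wild type at 10 min (adjusted p = 0.102) and at 0.73 in wild type at 30 min (adjusted p = 0.079). Within arrays CMK2 lay above CMK1 on 15 of 16 arrays, and wild type array 4 at 30 min was the exception at -0.66. The mean gap was 3.46 ± 0.38 in the mutant and 2.93 ± 0.82 in wild type at 10 min (SD, n = 4 each), and 0.70 ± 0.35 in the mutant and 0.44 ± 0.84 in wild type at 30 min (SD, n = 4 each).

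Since each group rests on 2 biological replicates, the tests were repeated with opposite-dye arrays averaged in pairs, over the 16 ways of pairing them. RCN1 and CMK2 were called against KCl in all 16 ways in each group, and so was RCN2 in the 3 groups where it could be tested this way. CMP2 was called in 14 of 16 in the mutant at 10 min, and in 16 of 16 in the other groups. CMK1 was called in 14 of 16 in the mutant and 13 of 16 in wild type at 10 min, and in 10 of 16 in the mutant and 14 of 16 in wild type at 30 min. The fall of CNA1 was called in 10 of 16 in the mutant and 16 of 16 in wild type at 30 min, and in 4 of 16 in wild type at 10 min. With the fit limited to the compared group, the CNA1 value in the mutant at 30 min had an adjusted p of 0.0698. In wild type at 30 min CNB1 was called in 12 of 16 and CMD1 in 8 of 16. The way that joins arrays 1 with 2 and 3 with 4 in every group, singled out after the correlations between arrays were seen, called 5 of 8 members in the mutant and 4 of 7 in wild type at 10 min, and 4 of 8 in the mutant and 6 of 8 in wild type at 30 min. Among all features this way called 403 of 1892 in the mutant and 546 of 1953 in wild type at 10 min. At 30 min it called 658 of 3367 in the mutant and 818 of 3493 in wild type. Calls lost in it were those of CMP2 in the mutant at 10 min (adjusted p = 0.063), CNA1 in wild type at 10 min (adjusted p = 0.179), CNA1 (adjusted p = 0.089) and CMK1 (adjusted p = 0.127) in the mutant at 30 min, and CNB1 (adjusted p = 0.0669) and CMD1 (adjusted p = 0.125) in wild type at 30 min. RCN2 could not be tested in it in wild type at 10 min. Between the times it called CMK2 in both strains and RCN1 and RCN2 in the mutant, with adjusted p of 0.0496 or less. Of all features it called 172 of 1781 between the times in the mutant and 120 of 1880 in wild type.

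The comparison of the strains asks whether these responses depend on Msn2 and Msn4. Of the 8 tested genes, 0 passed limma's test of the difference between mutant and wild type at 10 min (3 at an unadjusted p below 0.05), where 0.974% of all tested features were called. At 30 min 0 of 8 passed (0 at an unadjusted p below 0.05), where 1.01% of features were called. At 10 min CMK2 differed by 0.66 (95% confidence interval 0.085 to 1.24, adjusted p = 0.387), RCN2 by 0.62 (-0.0027 to 1.25, adjusted p = 0.468) and RCN1 by 0.53 (-0.022 to 1.09, adjusted p = 0.485), all toward a larger rise in the mutant. CMP2 differed the other way, by -0.44 (-0.83 to -0.049, adjusted p = 0.399), and CNB1 by 0.37 (0.032 to 0.71, adjusted p = 0.416). CMK1 differed by 0.14 (-0.74 to 1.01, adjusted p = 0.949). The upper ends of the intervals of CMK2, RCN2, RCN1 and CMK1 lay above 1 on the log2 scale, so a difference of more than 2-fold was within them. At 30 min the differences ran from -0.28 for CNB1 (-0.62 to 0.065, adjusted p = 0.349) to 0.12 for CNA1 (-0.30 to 0.54, adjusted p = 0.779). The widest interval at 30 min was that of CMK1, at -0.20 (-1.10 to 0.71, adjusted p = 0.84).

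**Figure D4:**
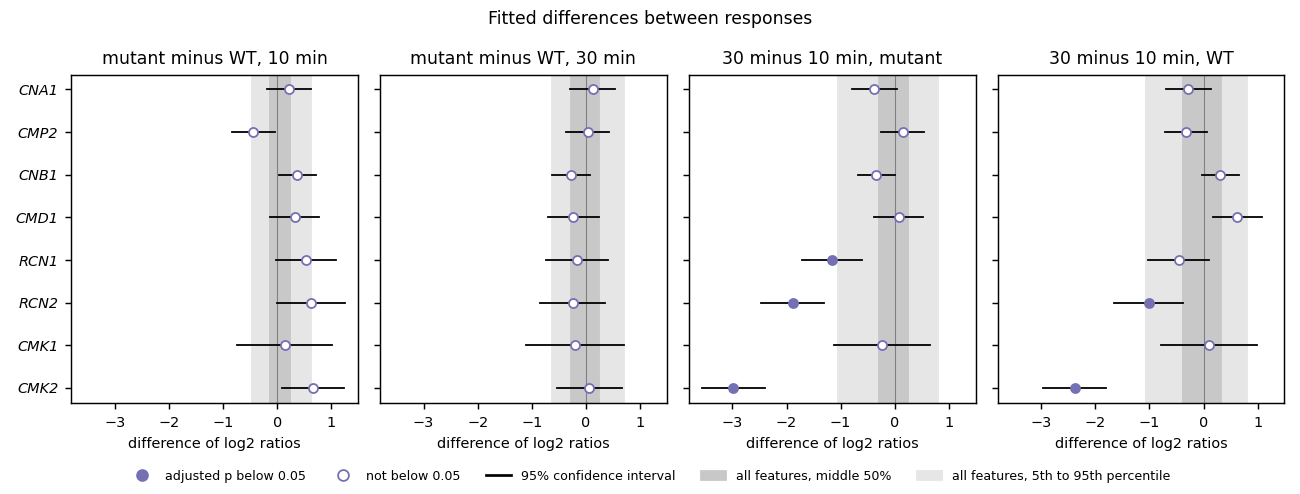
Fitted differences between log2 ratios (horizontal axis) of the 8 tested genes between mutant and wild type (10 min, then 30 min) and for 30 min minus 10 min in each strain, with 95% confidence intervals as black lines, filled points where the adjusted p was below 0.05, and grey bands for all features tested. The differences between strains have open points throughout, and those between times are filled for CMK2 and RCN2 in both strains and for RCN1 in the mutant.

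The comparison of the times shows which of the early rises were smaller at 30 min. In the mutant 3 of 8 genes passed, all lower at 30 min, where 16.1% of all tested features were called (6.07% higher and 10.1% lower). In wild type 2 of 8 passed, both lower at 30 min, where 19.9% of features were called (6.83% higher and 13.1% lower). CMK2 fell most: its log2 ratio differed by -2.99 ± 0.28 in the mutant (adjusted p = 1.71e-06) and by -2.38 ± 0.28 in wild type (adjusted p = 1.09e-05), so that its response was 7.92-fold and 5.22-fold smaller at 30 min. In the mutant that was the largest fall among the 2934 features tested, and in wild type it was 17 of 2607 from the bottom.

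RCN2 differed by -1.89 ± 0.28 between 30 and 10 min in the mutant (adjusted p = 0.000139) and by -1.01 ± 0.30 in wild type (adjusted p = 0.0239, n = 3 at 10 min). In wild type the RCN2 call was lost without array 3 at 30 min (-0.91, adjusted p = 0.0536), array 4 at 30 min (-0.94, adjusted p = 0.0647) or array 4 at 10 min (-0.91, adjusted p = 0.0802). Under quantile normalization the wild type difference turned to 0.10 (adjusted p = 0.877), while the adjusted p over its 16 alternatives ran from 0.0127 to 0.877. RCN1 differed by -1.16 ± 0.27 in the mutant (adjusted p = 0.00489) and by -0.46 ± 0.27 in wild type (adjusted p = 0.234). Whether the decline differs between the strains was not tested.

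The remaining genes did not pass between the times. CMD1 came nearest in wild type, higher at 30 min by 0.63 ± 0.22 (adjusted p = 0.0518), against 0.069 ± 0.22 in the mutant (adjusted p = 0.885). The wild type CMD1 difference passed after quantile normalization (0.68, adjusted p = 0.0406), with values on all 4 arrays required (adjusted p = 0.0429), with centring on features present on all 16 arrays (0.59, adjusted p = 0.0257), and without array 3 at 30 min (0.71, adjusted p = 0.0428) or array 1 at 10 min (0.73, adjusted p = 0.0413). It passed in 4 of 16 ways of pairing opposite-dye arrays, and over all 20 alternatives its adjusted p ran from 0.00989 to 0.272. CMK1 differed by -0.23 ± 0.42 in the mutant (95% confidence interval -1.12 to 0.65) and by 0.10 ± 0.42 in wild type (-0.79 to 0.99). CNB1 differed by -0.34 ± 0.16 in the mutant (adjusted p = 0.181) and by 0.31 ± 0.16 in wild type (adjusted p = 0.187).

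The 11 listed target genes of Crz1 outside these members, which encode mainly transporters and cell wall proteins, were nearly all called higher where they could be tested. Of those tested, 10 of 10 rose in the mutant at 10 min (median 2.85), 9 of 9 in wild type at 10 min (median 3.01), 10 of 10 in the mutant at 30 min (median 1.96) and 9 of 10 in wild type at 30 min (median 1.53). Of all tested features 18.6%, 21.8%, 22% and 19.2% were called higher in that order of groups. Many of the listed genes are known targets chosen with results of these data in view, so their direction is no independent evidence. The sodium-coupled phosphate transporter PHO89 rose by 4.99 ± 0.20 in the mutant and 4.29 ± 0.20 in wild type at 10 min, and by 4.32 ± 0.20 in the mutant and 4.07 ± 0.20 in wild type at 30 min, each with adjusted p of 5.2e-10 or less. PMC1, the vacuolar calcium pump, chosen after its values were seen, rose by 2.19 ± 0.15 in the mutant and 2.26 ± 0.13 in wild type at 10 min, with adjusted p of 1.12e-08 or less. PMR1, the calcium and manganese pump of the Golgi, rose by 0.98 ± 0.16 in the mutant at 30 min (adjusted p = 0.000166) and was the listed gene that did not pass in wild type at 30 min (0.096 ± 0.16, adjusted p = 0.66). ENA1, a sodium pump gene, could not be tested: it had a value on array 4 alone, at 3.01 in the mutant and 3.25 in wild type at 10 min and at 0.68 in the mutant at 30 min. The PMR1 difference between the strains did not pass (0.88 ± 0.22, adjusted p = 0.0549).

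The course from 10 to 30 min separated the Crz1 targets. In the mutant 5 of 10 were lower and 2 higher at 30 min, and in wild type 7 of 9 were lower and 0 higher. Of all tested features 10.1% were called lower and 6.07% higher in the mutant, and 13.1% lower and 6.83% higher in wild type. GYP7, a GTPase-activating protein, differed by -2.08 ± 0.15 in the mutant (adjusted p = 1.39e-07) and by -2.20 ± 0.15 in wild type (adjusted p = 5.07e-08). YPS1, an aspartic protease of the cell surface, differed by -1.89 ± 0.19 in the mutant (adjusted p = 2.68e-06) and by -2.02 ± 0.19 in wild type (adjusted p = 1.08e-06). The glucan synthase gene GSC2 went the other way in the mutant, at 1.25 ± 0.30 (adjusted p = 0.00764), with 0.64 ± 0.30 in wild type (adjusted p = 0.149). CRH1, a cell wall transglycosylase, was the other gene higher at 30 min in the mutant (1.17 ± 0.25, adjusted p = 0.00397).

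**Figure D5:**
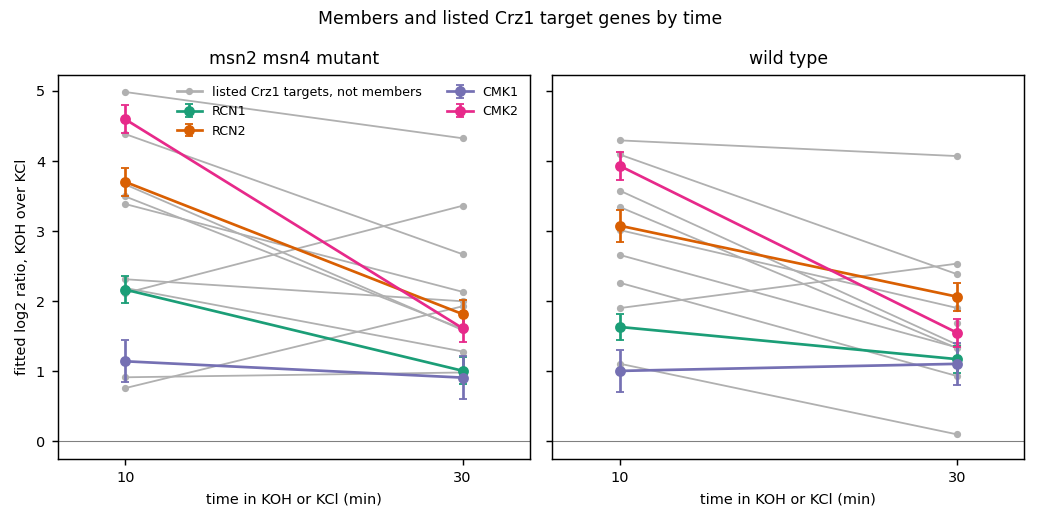
Fitted log2 ratio of KOH over KCl (vertical axis) at 10 and 30 min (horizontal axis) in the mutant and in wild type, with RCN1, RCN2, CMK1 and CMK2 in colour (bars, standard errors of the model) and the listed Crz1 targets that are not members in grey. CMK2 declines between the times in both strains. The fitted values of CMK1 lie between 0.91 and 1.14 in all 4 groups, but its wild type arrays ran from 0.057 to 1.87 at 10 min and from 0.42 to 2.02 at 30 min.

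Other genes around calcineurin and calmodulin are given by list, to be read beside the shares of all features called, which at 10 min were 36.5% in the mutant and 42.7% in wild type. At 30 min these shares were 41.1% in the mutant and 38% in wild type. Of 6 genes whose products modify or carry Crz1 or Rcn1, 1 of 4 tested rose in the mutant and 3 of 4 in wild type at 10 min. At 30 min 1 of 6 rose in the mutant and 1 of 6 fell in wild type. MCK1, a kinase of the GSK-3 family, rose by 0.45 ± 0.12 in the mutant (adjusted p = 0.00739) and by 0.39 ± 0.12 in wild type (adjusted p = 0.0144) at 10 min. MSN5, the exportin that takes Crz1 out of the nucleus, rose by 0.80 ± 0.11 in the mutant at 30 min (adjusted p = 8.15e-05). Its wild type value at 30 min was 0.26 ± 0.11 (adjusted p = 0.0794). Earlier, at 10 min, wild type MSN5 rose by 0.54 ± 0.13 on 3 arrays (adjusted p = 0.00354), the largest of the 3 rises called there. Only 2 mutant arrays held MSN5 at that time, too few for a test. NMD5, the importin of Crz1, had 0.10 ± 0.19 in the mutant at 30 min (adjusted p = 0.692), where its arrays stood at 0.78, 0.52, -0.35 and -0.54. In wild type at 30 min NMD5 fell by 0.53 with an error of 0.19 (adjusted p = 0.0438). The differences between the strains at 30 min did not pass for MSN5 (0.53 ± 0.16, adjusted p = 0.0836) or NMD5 (0.63 ± 0.27, adjusted p = 0.211). Of the drug-binding immunophilins CPR1 alone was tested, and 0 of 1 passed limma's test in any comparison (0 at an unadjusted p below 0.05). The listed calcineurin substrates had 0 of 1 past that test in the mutant at 10 min, 0 of 3 in the mutant at 30 min and 0 of 1 in wild type at 30 min, each with 0 at an unadjusted p below 0.05.

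Genes of calmodulin-binding proteins rose in 1 of 2 cases in the mutant and 2 of 3 in wild type at 10 min, and in 3 of 4 in the mutant and 2 of 4 in wild type at 30 min. GAD1, glutamate decarboxylase, stood out in wild type with a rise of 2.61 ± 0.16 at 10 min (adjusted p = 5.23e-09), and had too few values in the mutant to be tested at that time. At 30 min GAD1 rose by 0.49 ± 0.16 in the mutant (adjusted p = 0.0274) and by 1.45 ± 0.16 in wild type (adjusted p = 5.77e-06), a difference of -0.96 ± 0.23 (adjusted p = 0.0534). ARC35, a subunit of the Arp2/3 complex, rose by 0.56 ± 0.14 in the mutant (adjusted p = 0.00492) and by 0.73 ± 0.14 in wild type (adjusted p = 0.000617) at 30 min. Of the other genes with EF hands, the calcium-binding fold of calmodulin, the centrin gene CDC31 rose by 0.97 ± 0.20 in the mutant at 10 min (adjusted p = 0.00262) and the frequenin gene FRQ1 by 0.41 ± 0.15 in wild type at 30 min (adjusted p = 0.0465).

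Of the catalytic subunit genes of other serine/threonine phosphatases, 2 rose and 2 fell of 9 tested in the mutant at 10 min, and 2 rose and 1 fell of 8 in wild type. At 30 min 1 rose and 2 fell of 9 in the mutant, and 2 rose and 2 fell of 9 in wild type. These counts are near the share of all features called in each group. PPZ2 stood at 0.44 ± 0.18 in the mutant (adjusted p = 0.0711) and rose by 1.45 ± 0.18 in wild type (adjusted p = 1.04e-05) at 10 min, a difference of -1.02 ± 0.26 that did not pass (adjusted p = 0.0873). PPT1 fell by 1.04 with an error of 0.26 in the mutant (adjusted p = 0.00655) and by 0.80 with an error of 0.31 in wild type (adjusted p = 0.0486) at 10 min.

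Likeness of pattern was measured as Pearson's r of the log2 ratio over the 16 arrays, among 1476 other features with a value on every array, as a description. The arrays share strains, times and probably extracts, so r reflects those too. CMK2 was most like GYP7 (r = 0.958), MEP1 (r = 0.951) and YOR385W (r = 0.948). RCN1 was most like RCR1 (r = 0.886), PEP12 (r = 0.881) and AHA1 (r = 0.852). CMD1 was most like RIB5 (r = 0.920) and CNB1 most like VPH2 (r = 0.912), while the best matches of CNA1 (PMT3, r = 0.857), CMP2 (ATP2, r = 0.791) and CMK1 (GOS1, r = 0.787) were lower. Among the 8 tested members the highest r was that of RCN2 with CMK2 (0.929 over the 15 arrays that measured both), followed by RCN1 with RCN2 (0.889 over 15 arrays) and RCN1 with CMK2 (0.842 over 16 arrays), and CNA1 with CMP2 had r = -0.21.

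The genes next to the members on the chromosome, found by order in the RefSeq gene table (assembly R64), were called in both directions. Of 18 neighbours, 3 rose and 2 fell of 12 tested in the mutant at 10 min, and 4 rose and 2 fell of 10 in wild type, where 36.5% and 42.7% of all features were called in that order. At 30 min 7 rose and 4 fell of 15 in the mutant, where 41.1% of all features were called, and 5 rose and 4 fell of 14 in wild type, where 38% were. The neighbours named here were chosen after their values were seen. STE13, a protease gene that is divergent from RCN2, rose by 1.46 ± 0.17 in the mutant (adjusted p = 6.27e-06) and by 1.19 ± 0.17 in wild type (adjusted p = 3.01e-05) at 10 min. GSY1, the glycogen synthase gene beside CMK1 on the same strand, stood at 3.87, 3.24, 4.00 and 3.86 in wild type at 10 min. All 4 of those GSY1 arrays were high, including the pair on which CMK1 was low. In the mutant at 10 min GSY1 stood at 0.90 and 1.98 on the 2 arrays that measured it. At 30 min GSY1 stood at -1.36 ± 0.25 in the mutant (adjusted p = 0.000801) and at 0.062 ± 0.28 in wild type (adjusted p = 0.877, n = 3). IMD4, beside CMP2 on the other strand, fell by 0.75 with an error of 0.13 in the mutant (adjusted p = 0.000213) and by 0.83 with an error of 0.13 in wild type (adjusted p = 5.2e-05) at 10 min.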

How the data were processed

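The authors deposited 1 log ratio per feature and array, read here as log2 of KOH over KCl. Scanner, background correction, normalization and why cells are empty: each is not given in the sources used here. The base rests on the range of values: the highest was 16.268, on 1 array, and 8.087 on the others. All arrays were taken to run the same way, since arrays of opposite dye correlated positively within groups. Deposited array medians ran from -0.285 to 0.2615, so each array was centred on its median. The model, in limma 3.58.1 (R 4.3.3), took in all 16 arrays, a coefficient per group and a dye term. Each difference was fitted as its own coefficient, and a feature entered a test if at least 3 arrays, covering both dyes, held it in every group involved. Tests were two-sided with Benjamini-Hochberg adjustment over all features tested, and were checked on simulated data. The simulated arrays had independent noise, so that check could not show the effect of arrays that share an extract. The number of arrays limits the precision. The dye term of the 8 tested genes was at most 0.18 ± 0.16 between Cy5 and Cy3 (lowest adjusted p = 0.569). Array numbers follow accession order, and no label says which arrays share an extract.

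Members, gene lists and the rule for named genes (all members, and up to 4 listed genes with the largest change among those called) were chosen with earlier results of these data known. The rule was not kept for the Crz1 targets, where PMC1, PMR1 and ENA1 were named too. At 10 min PUN1 (4.39 in the mutant, 4.09 in wild type) and NCW2 (3.39 and 3.01) rose more than PMC1. Between the times PUN1 differed by -1.72 in the mutant, a larger change than those of GSC2 and CRH1. Other lists departed from the rule as well. In wild type at 10 min HRR25 (0.47, adjusted p = 0.00604) rose more than MCK1 but was not named. In the mutant at 30 min MYO5 (0.67, adjusted p = 0.00272) rose more than ARC35 but was not named. Gene names come from the RefSeq table, where 5675 of 6174 features matched. No reference sequence was used here.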

Additional observations from a re-analysis of the deposited data

Results flagged for a closer look

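The responses of some genes differed between 10 and 30 min by limma's test of the difference itself. In the mutant these were CMK2 at -2.99, RCN2 at -1.89 and RCN1 at -1.16, and in wild type CMK2 at -2.38 and RCN2 at -1.01, all as log2 differences of 30 min minus 10 min. The 4 arrays at 30 min lay below the 4 arrays at 10 min for each of the 3 genes in the mutant, and for CMK2 in wild type. RCN2 in wild type, with 3 arrays at 10 min, also did not overlap. These genes were flagged by the test on the same arrays, so their lack of overlap adds no support to it. The share of all features without overlap between the times was not computed. Of 31 groups of 4 values among the members, 0 held an array far from the other 3 by Dixon's test, which flags about 1 in 20 groups by chance.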

How the results depend on the processing

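Of 1140 values of the members under alternatives, 1095 stayed on their side of the threshold, 32 lost the call and 12 gained it. Values called in neither the main fit nor the alternative count among the 1095 even where their sign changed. An example is CMK1 between the times in wild type (-0.22 to 0.46). The remaining 1 lost its call and reversed: RCN2 for 30 min minus 10 min in wild type under quantile normalization (0.10). The cause was not tested. CMK2, RCN2 and RCN1 stayed called against KCl in each group under every alternative in which they were tested. Centring on features present on all 16 arrays was chosen after seeing the data. With the 12 arrays of the larger title series alone, the mutant at 10 min had 672 of 2059 tested features called, against 1109 of 3042 in the report. Between times these 12 arrays gave 301 of 2014 in the mutant against 473 of 2934, and 1 member in wild type against 2. Alternatives that change which arrays or values are needed also change the number of features tested. With the compared groups alone, 810 were called in the mutant at 30 min against 1742. Between the strains at 10 min (23 called) the count was 13 with those groups alone, 15 after quantile normalization, 13 with values on all 4 arrays, 44 with values on at least 2 and 8 with those 12 arrays. Between the strains at 30 min (40 called) it was 0 with those groups alone (limma), 86 as deposited, 98 after quantile normalization, 116 with all 4 arrays, 24 with at least 2 and 0 with those 12 arrays. Averaging opposite-dye arrays as if from 1 extract, over 16 pairings, gave at the lowest 403 in the mutant and 546 in wild type at 10 min (1140 in the report), 658 in the mutant and 818 in wild type at 30 min (1630), 172 between times in the mutant and 120 in wild type (519), with 3 members in wild type at 10 min and 1 between times in wild type. Between the strains pairings gave 2 to 56 at 10 min and 0 to 570 at 30 min. Leaving out 1 array gave 650 to 1110 features in the mutant and 806 to 1255 in wild type at 10 min, 1362 to 1593 in the mutant and 1265 to 1381 in wild type at 30 min, 10 to 40 and 0 to 260 between the strains at 10 and 30 min, and 326 to 435 in the mutant and 374 to 522 in wild type between times. Members then numbered 6 in the mutant and 3 to 6 in wild type at 10 min, 5 to 7 and 7 at 30 min, 0 between strains, and 3 in the mutant and 1 to 3 in wild type between times. No paired analysis was possible because the labels give no replicate numbers that tie arrays of different groups to each other. Within groups the pairings above stand in for it, and the title series as a fixed block changed no call of the members.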
